A study of Homo sapiens with 14 samples.

Results

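The 55 genes described here carry out mitosis: they encode the kinases and phosphatases that start it, the proteins of the spindle, the centromere and the kinetochore, the motors that move along spindle microtubules, and the proteins that compact chromosomes and complete cell division. They were chosen by symbol, for what their products do, and each symbol was matched to its row of a table of 58219 genes. All 55 were found, and all 55 were among the 21032 genes that passed a filter on low counts and were tested. RNA was sequenced from OVCAR4 cells, an established human cell line of high-grade serous ovarian cancer, and reads were counted per gene. Cells had been reverse transfected with 120 nM of a pool of small interfering RNAs (siRNAs), which direct the degradation of a matching transcript, and were harvested 72 hours later. The 14 libraries formed 7 groups of 2: siNT1 and siNT2 received different non-targeting pools and served as the 4 control libraries, siPAX8, siSOX17, siMECOM and siWT1 received a pool against the transcription factor in their name, and siDual received both the PAX8 and the SOX17 pool. All groups are the same untreated line apart from the transfection, each factor was targeted with 1 commercial pool, and the labels do not say how the 120 nM was divided in siDual.

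In mitosis, the kinase CDK1 and the kinases it works with break down the nucleus and build a spindle, kinetochores assembled on centromeres attach the chromosomes to it, and a checkpoint holds separase inactive until every kinetochore is attached. The anaphase-promoting complex then marks securin and cyclin B for destruction, sister chromatids part, and the cell divides. Most of these genes are transcribed late in the cell cycle, through promoters with a cell cycle genes homology region (CHR) and CCAAT boxes, to which MuvB complexes with B-MYB and FOXM1 and the factor NF-Y are known to bind, and their RNA falls when cells leave the cycle. Tumour cells that divide often hold high levels of them, and several are drug targets or markers of proliferation in cancer.

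Between 40832825 and 49803860 reads were assigned to genes per library. The targeted transcripts fell in the groups named for them, and some moved in other groups. PAX8 stood at 192 to 225 CPM (reads scaled to a common library size) in the controls, at 32.8 and 38.3 CPM in siPAX8 and at 52.8 and 50.6 CPM in siDual; it was also 1.78-fold lower in siWT1 (112 and 118 CPM, adjusted p = 4.48e-08) and 1.32-fold higher in siSOX17 (adjusted p = 6.94e-05). SOX17 stood at 104 to 119 CPM in the controls, at 15.7 and 13.1 CPM in siSOX17 and at 15.9 and 17.7 CPM in siDual; it was 1.38-fold lower in siPAX8 (adjusted p = 0.000304) and 2.07-fold higher in siMECOM (239.8 and 219 CPM, adjusted p = 2.05e-08). MECOM was at 125 to 133 CPM in the controls and at 8.76 and 16.4 CPM in siMECOM, and it was 2.91-fold lower in siSOX17, 2.63-fold in siDual, 1.33-fold in siPAX8 and 1.27-fold in siWT1 (adjusted p = 2.01e-08, 5.06e-08, 0.0116 and 0.0397). The part of these changes in the members' responses was not tested. WT1 had 14 to 22 reads per control library and 0 and 1 in siWT1, so this line held little WT1 RNA to remove. Of 15 markers of ovarian serous and Mullerian epithelium, 12 were above 1 CPM in the controls, and WT1, MSLN and ESR1 were below it. The summed level of that list was 4648 to 5431 CPM in the controls, 8753 to 11113 CPM in siPAX8, 13414 to 13651 CPM in siSOX17, 18457 to 21121 CPM in siDual, 5414 to 6133 CPM in siMECOM and 4165 to 4399.5 CPM in siWT1. Most of this sum is the keratins KRT7, KRT8 and KRT18. They averaged 1598, 1408 and 774 CPM in the controls and reached 5442, 9463 and 5262 CPM in their highest library. The sum therefore does not describe the list as a whole. CDH6, MUC16 and WFDC2, at 166, 189 and 124 CPM in the controls, ranged over all libraries from 21.6 to 609, 84.8 to 306 and 53.1 to 153 CPM. Of 5 leukocyte markers 1 passed 1 CPM in the controls, CD68, of 8 stromal markers 1, COL1A1, and of 5 endothelial markers 3, while PTPRC, CD3E and COL3A1 averaged 0.052, 0.0317 and 0.0343 CPM there. The summed stromal level was 35.4 to 45.7 CPM in the controls and 62 to 84.1 CPM in siPAX8, siSOX17 and siDual, the leukocyte level 18.6 to 22.5 CPM and 34.4 to 44.4 CPM, and the endothelial level 8.48 to 10.5 CPM in the controls, 20.2 to 20.9 CPM in siPAX8, 6.63 to 7.26 CPM in siSOX17 and 6.44 to 7.29 CPM in siDual; the part of these in the results was not tested. Mitochondrially encoded genes took 5.34% to 6.13% of reads in the controls and 7.91% to 11% in all knockdown libraries, and their part in the results below was not tested beyond a fit without those genes. Whether the replicates were transfected separately is not stated in the labels, so the p-values reflect only how far these libraries spread, which may be technical.

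Promoter sequence is shown for 4 of the genes because they mark the ends of the responses described below. ESPL1 and CDC20 fell furthest in siPAX8, SPC24 changed least there, and CDC25C had the highest log2 fold change in siMECOM. The sequences are from RefSeq on GRCh38.p14, run 5′ to 3′ on the gene's strand and cover 220 bases before and 30 after an annotated start. Capitals mark CHR letters (TTTGAA or TTCGAA) and CCAAT boxes (CCAAT), each read on both strands, so TTCAAA and ATTGG are the same motifs on the other strand. Within hg38, the genes span chr12:53268299-53293643 (ESPL1, ENSG00000135476.11), chr1:43358955-43363203 (CDC20, ENSG00000117399.13), chr19:11131520-11155808 (SPC24, ENSG00000161888.11) and chr5:138285265-138338355 (CDC25C, ENSG00000158402.18). ESPL1 is shown at chr12:53268079-53268328 on the plus strand, CDC20 at chr1:43358761-43359010 on the plus strand, SPC24 at chr19:11155753-11156002 on the minus strand and CDC25C at chr5:138331775-138332024 on the minus strand, which is 1 of 4 starts listed for that gene and the start whose stretch of this length held the most kinds of motif.
ESPL1: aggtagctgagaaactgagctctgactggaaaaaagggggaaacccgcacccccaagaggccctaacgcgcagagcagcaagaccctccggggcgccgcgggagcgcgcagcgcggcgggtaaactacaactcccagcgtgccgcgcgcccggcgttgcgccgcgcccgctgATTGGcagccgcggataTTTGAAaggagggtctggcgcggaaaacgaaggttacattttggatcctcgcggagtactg
CDC20: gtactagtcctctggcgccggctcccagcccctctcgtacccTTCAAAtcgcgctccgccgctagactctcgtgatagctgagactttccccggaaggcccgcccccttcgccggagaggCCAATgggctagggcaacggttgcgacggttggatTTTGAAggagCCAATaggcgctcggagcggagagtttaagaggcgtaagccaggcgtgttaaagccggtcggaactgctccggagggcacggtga
SPC24: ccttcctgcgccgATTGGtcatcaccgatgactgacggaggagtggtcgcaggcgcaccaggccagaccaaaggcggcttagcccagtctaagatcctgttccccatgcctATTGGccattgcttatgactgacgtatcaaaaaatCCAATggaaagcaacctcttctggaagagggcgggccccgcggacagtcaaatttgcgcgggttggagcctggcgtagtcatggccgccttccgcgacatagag
CDC25C: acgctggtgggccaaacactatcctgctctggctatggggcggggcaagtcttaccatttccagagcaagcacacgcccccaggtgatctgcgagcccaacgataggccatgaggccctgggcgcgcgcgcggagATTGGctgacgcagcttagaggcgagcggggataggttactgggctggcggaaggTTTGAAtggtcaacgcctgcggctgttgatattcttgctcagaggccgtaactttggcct

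ESPL1 held 1 CHR and 1 CCAAT box in the stretch shown, CDC20 held 2 of each, CDC25C 1 of each, and SPC24 held 3 CCAAT boxes and no CHR letters. RefSeq windows of 300 bases, 250 before to 50 after the start, were given for 47 of the 55 members, 61 windows in all. TTK, BIRC5, CENPM, AURKA, UBE2C, KNL1, BUB3 and TPX2 had no window. CHR letters were present for 37 of the 47 members (78.7%), against 19.5% of 27305 genes with a window. CCAAT boxes were present for 36 members (76.6%), against 39.7% of those genes. An E2F site (TTTCCCGC, TTTCGCGC, TTTGCCGC or TTTGGCGC, both strands) was present for 5 members (10.6%), CDC25A, CDK1, CENPA, KIF15 and NUSAP1, against 3.99% of those genes. Counted by window of equal length, CHR letters were in 65.6% of member windows and 16.4% of all 35116 windows, CCAAT boxes in 67.2% and 34.6%, and E2F letters in 9.84% and 3.31%. Of 53 CHR matches in member windows, 38 lay within 50 bases of the start, and of 81 CCAAT matches 54 lay in the 100 bases before it. TTCGAA reads the same on both strands and was counted once. Matches in windows of neighbouring starts can be the same bases counted again. A match is a description of the letters and not a site of binding.

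**Figure D1:**
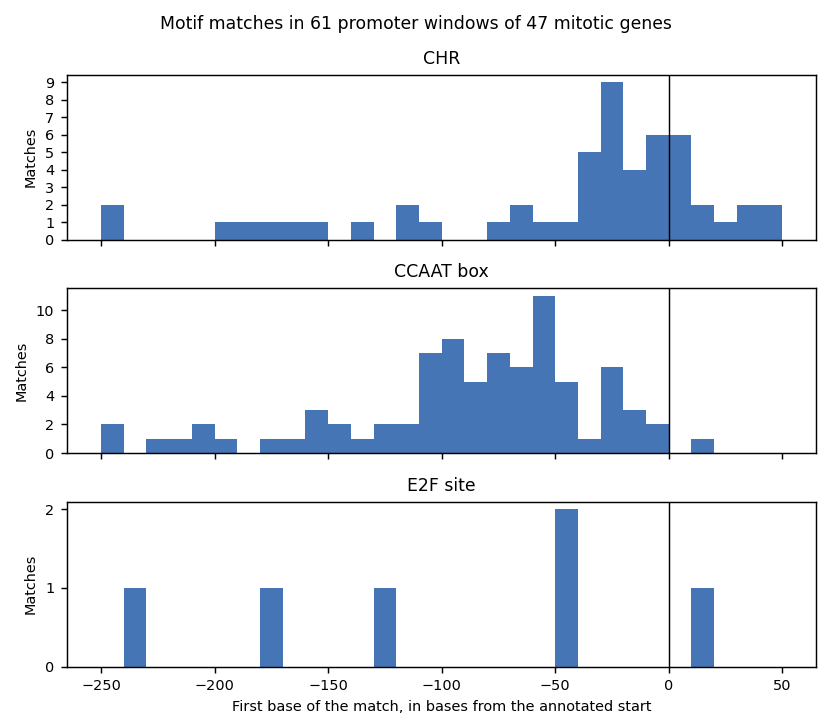
The number of matches in the 61 member windows (vertical axis) by distance from the annotated start in bases (horizontal axis, negative before the start), in a panel each for CHR letters, CCAAT boxes and E2F letters. CHR matches gather around the start, with a median offset of -26 bases, and CCAAT matches before it, with a median offset of -78 bases.

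The members fell together in siPAX8, siSOX17 and siDual, and their median changes in siMECOM and siWT1 were small. In siPAX8 all 55 were lower than in the controls, and 49 of them by at least 2-fold, with a median log2 fold change of -1.58 (called at an adjusted p under 0.05 in edgeR's quasi-likelihood test, Benjamini-Hochberg over all genes tested). Of all genes tested, 25.4% were called lower in siPAX8, 26.9% higher and 6.49% lower by at least 2-fold, with a median of about 0.00. In siSOX17, 54 members fell and none rose, 17 of them by at least 2-fold, with a median of -0.81; of all genes 25.5% were lower, 27.2% higher and 6.25% lower by at least 2-fold. In siDual, 54 fell and none rose, 35 of them by at least 2-fold, with a median of -1.12; of all genes 27.3% were lower, 28.9% higher and 7.56% lower by at least 2-fold. With mitochondrially encoded genes left out of the library sizes, the medians were -1.58, -0.83 and -1.15, and the counts of lower members were 55, 54 and 54. RNA came from whole cultures, so fewer cells in mitosis and less of these RNAs in each cell cannot be told apart.

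In siMECOM, 23 members fell and 1 rose, with a median of -0.16, against 16.1% lower and 16.5% higher among all genes. In siWT1, 26 fell and 3 rose, with a median of -0.17, against 19.8% lower and 17.7% higher among all genes. No member changed by 2-fold in either. These 2 counts lean on single libraries: the lower count was 14 in siMECOM without its replicate 1, and in siWT1 it was 9 without replicate 2 and 17 without siNT2 replicate 1. The median in siMECOM was -0.23 without siNT2 replicate 2. Between the control pools no member was called by edgeR, 4 had an unadjusted p under 0.05, and 0.0571% of all genes were lower in siNT1 and 0.242% higher.

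**Figure D2:**
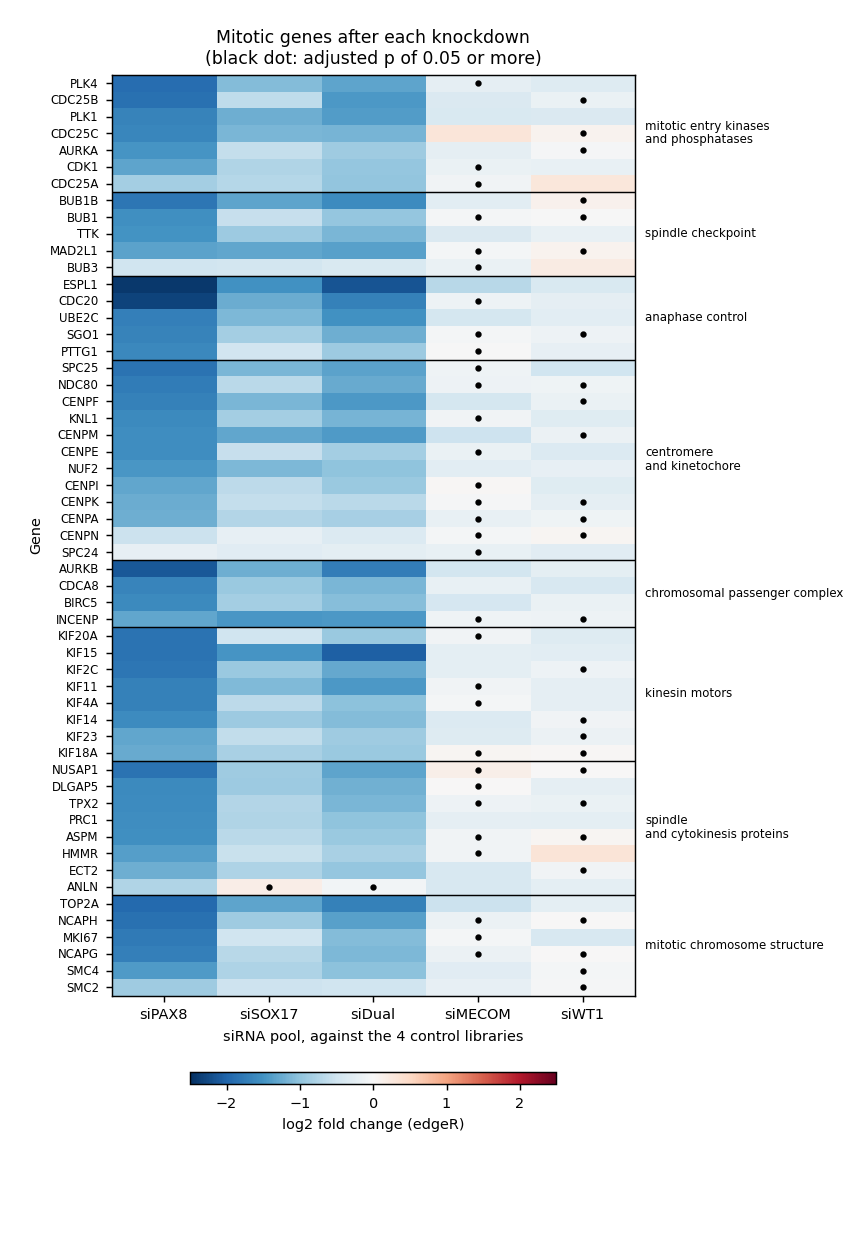
The log2 fold change of each of the 55 members (vertical axis, grouped by role) in each knockdown against the 4 control libraries (horizontal axis), on a colour scale from blue (lower) to red (higher), with a dot where the adjusted p was 0.05 or more. The siPAX8 column is the darkest for 50 members, and the siMECOM and siWT1 columns stay within -0.70 and 0.32.

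Summed over the 55 members, the level was 7025 and 6842 CPM in siNT1 and 6793 and 6606 CPM in siNT2. It was 2374 and 2375 CPM in siPAX8, 3975 and 4330 CPM in siSOX17 and 3344 and 3230 CPM in siDual, which put the group means at 34.8%, 60.9% and 48.2% of the control mean. It was 5952 and 5913 CPM in siMECOM and 6209 and 5877 CPM in siWT1, or 87% and 88.7% of the control mean. No knockdown library reached the lowest control library on this sum, and the 3 groups with a PAX8 or SOX17 pool did not overlap with each other or with siMECOM and siWT1. For 54 members both siPAX8 libraries were below all 4 control libraries, as were both siSOX17 libraries for 54 and both siDual libraries for 54, against 30.5%, 30.8% and 32.7% of all genes tested. The count was 32 members in siMECOM and 28 in siWT1, against 24.5% and 26.6% of all genes. Across the 5 knockdowns 11 members were lower in all 5: PLK1, TTK, UBE2C, ESPL1, NUF2, AURKB, BIRC5, CDCA8, KIF15, PRC1 and TOP2A. That count leans on single libraries: it was 4 without siNT2 replicate 1, 5 without siNT1 replicate 1 or siWT1 replicate 2, 6 without siNT1 replicate 2 or siMECOM replicate 1 and 7 without siMECOM replicate 2 or siWT1 replicate 1. It was also 5 against siNT2 alone, 6 against siNT1 alone or without a filter and 7 with only the groups compared, and PLK1 and ESPL1 were the members lower in all 5 under each of the 23 alternatives. A further 25 were lower in 4, 15 were lower in 3, and 4 were lower in 3 and higher in 1 (CDC25A, CDC25C, BUB3 and HMMR). The 5 comparisons share the control libraries.

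Levels between members can be compared only per length of transcript. In FPKM (CPM divided by the length of the gene's exons in kilobases, mean over the 4 control libraries), CDC20 was highest at 179 FPKM, followed by UBE2C at 129.9 FPKM, PTTG1 at 128 FPKM and TPX2 at 124 FPKM. The lowest were CENPK at 2.22 FPKM, KIF15 at 3.51 FPKM and PLK4 at 4.02 FPKM. Both ends of this range fell in siPAX8: CDC20 to 20% of control, and CENPK, KIF15 and PLK4 to 42.2%, 27.9% and 26.8% of control in the fit.

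All 7 kinases and phosphatases of mitotic entry fell in siPAX8, siSOX17 and siDual, with medians of -1.62, -0.76 and -1.16. PLK1, a kinase needed for centrosome maturation, bipolar spindles and mitotic exit, was at 292 and 252 CPM in siNT1 and at 256 and 259 CPM in siNT2. It was at 88 and 78.5 CPM in siPAX8, 108 and 119.7 CPM in siSOX17 and 103 and 98.1 CPM in siDual, and at 214 and 193 CPM in siMECOM and 207 and 208 CPM in siWT1. Every knockdown library was below the lowest control library, and the fall was significant in each of the 5 groups, from -1.67 in siPAX8 (SE 0.08, adjusted p = 5.05e-12) to -0.35 in siWT1 (SE 0.08, adjusted p = 0.00141). PLK4, which starts the duplication of centrioles, fell furthest of the 7 in siPAX8, from 16.5 to 19.3 CPM in the controls to 4.61 and 5.04 CPM (log2 fold change -1.90, SE 0.12, adjusted p = 1.49e-10). CDK1, the kinase whose activity with cyclin B drives entry into mitosis, was at 84.4 and 85.7 CPM in siNT1 and at 88.1 and 78.2 CPM in siNT2, and at 32.7 and 34.6 CPM in siPAX8, 48.5 and 50.8 CPM in siSOX17 and 42.8 and 43.1 CPM in siDual. It fell by 1.32 in siPAX8, 0.76 in siSOX17 and 0.97 in siDual on the log2 scale, and its groups did not overlap with the controls. AURKA, which acts at spindle poles, had log2 fold changes of -1.47, -0.59 and -0.90 in the same groups.

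The 3 CDC25 phosphatases, which remove the inhibitory phosphates from cyclin-dependent kinases, differed from each other. CDC25B was at 217 and 218 CPM in siNT1 and at 199 and 232 CPM in siNT2, and at 57.8 and 61.6 CPM in siPAX8, 131 and 149.8 CPM in siSOX17 and 81.2 and 78.2 CPM in siDual. Its log2 fold change was -1.86 in siPAX8 and -0.63 in siSOX17, and the siDual libraries lay nearer to siPAX8. CDC25A, which also acts at entry into S phase, was at 35.3 and 33.5 CPM in siNT1 and at 36.1 and 36 CPM in siNT2, at 18.1 and 21 CPM in siPAX8, 19 and 24.1 CPM in siSOX17 and 17.2 and 18.1 CPM in siDual, and at 42.6 and 42.9 CPM in siWT1. It fell by 0.85, 0.71 and 0.99 on the log2 scale in siPAX8, siSOX17 and siDual, and both siWT1 libraries were above all controls (log2 fold change 0.28, SE 0.08, adjusted p = 0.0135). That rise was not called when siWT1 replicate 1 or siWT1 replicate 2 was left out (adjusted p = 0.067 and 0.0705), or against siNT2 alone (adjusted p = 0.0654). CDC25C was at 21.1 and 17.8 CPM in siNT1 and at 20 and 19.2 CPM in siNT2, at 7.01 and 5.66 CPM in siPAX8, 9.33 and 8.46 CPM in siSOX17 and 9.74 and 7.76 CPM in siDual, and at 24.9 and 23 CPM in siMECOM. Both siMECOM libraries exceeded every control library, with a log2 fold change of 0.29 (SE 0.10, adjusted p = 0.0303), but the call was lost when any of 4 libraries was left out: siNT1 replicate 2, siNT2 replicate 2, siMECOM replicate 1 or siMECOM replicate 2 (adjusted p = 0.12, 0.0975, 0.228 and 0.0726). CDC25C shares exon sequence on the opposite strand with FAM53C, which held 98 CPM in the controls and had log2 fold changes of -0.38 in siPAX8 and 0.42 in siMECOM, and the strand setting of the counting is not given in the sources used here. Reads of the pair cannot be told apart. The rise of CDC25C in siMECOM was also not called against siNT1 alone, against siNT2 alone or without a filter (adjusted p = 0.0647, 0.0792 and 0.0539).

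The 5 genes of the spindle checkpoint, which delays anaphase while kinetochores are unattached, all fell in siPAX8, siSOX17 and siDual, with medians of -1.49, -0.92 and -1.14. BUB1B encodes BUBR1, a part of the mitotic checkpoint complex. It was at 54 and 53.5 CPM in siNT1 and at 54.5 and 47.2 CPM in siNT2, and at 14.1 and 15.9 CPM in siPAX8, 20.8 and 21 CPM in siSOX17 and 17 and 18.1 CPM in siDual. The libraries of each of these groups were well below the controls, with log2 fold changes of -1.80, -1.32 and -1.58 (SE 0.08 in each). The kinase TTK, which recruits the other checkpoint proteins to kinetochores, fell in all 5 groups, from 71.3 to 73.6 CPM in the controls to 26.2 and 25.8 CPM in siPAX8 and 55.4 and 58.4 CPM in siMECOM (log2 fold change -0.36, SE 0.07, adjusted p = 0.000563). Its siWT1 value was near the threshold (log2 fold change -0.18, SE 0.07, adjusted p = 0.045), and that call was lost under every alternative but the stricter filter, the replicate block and leaving out a siSOX17 library (adjusted p from 0.0525 to 0.261). BUB1, a checkpoint kinase that also recruits shugoshin, fell in siPAX8 (-1.53), siSOX17 (-0.58) and siDual (-0.97) and had values of -0.05 and -0.01 in siMECOM and siWT1. MAD2L1, which binds CDC20 in the checkpoint complex, was at 19.3 and 18.3 CPM in siPAX8, 18.7 and 19.7 CPM in siSOX17 and 18.8 and 18.3 CPM in siDual, against 44 to 51.8 CPM in the controls. The 3 groups overlapped with each other and not with the controls, and the log2 fold changes were -1.33, -1.31 and -1.36. BUB3, the adaptor that carries BUB1 and BUBR1 to kinetochores, changed least of the 5. It was at 126 and 120.0 CPM in siNT1 and at 120.0 and 113 CPM in siNT2, at 85.2 and 84.9 CPM in siPAX8, 84.2 and 88.9 CPM in siSOX17 and 92.4 and 91.2 CPM in siDual, and at 141 and 135 CPM in siWT1. The fall was -0.49 in siPAX8 and -0.47 in siSOX17. Both siWT1 libraries lay above all controls (log2 fold change 0.21, SE 0.06, adjusted p = 0.012). That rise was not called without siWT1 replicate 1 (log2 fold change 0.18) or against siNT1 alone (0.17, adjusted p = 0.079).

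Genes of anaphase control held the largest falls. All 5 dropped by at least 2-fold in siPAX8, with a median of -1.71, and all 5 fell in siSOX17 (median -1.12) and siDual (median -1.51). ESPL1, the separase that cleaves cohesin at anaphase, was at 67.9 and 60.8 CPM in siNT1 and at 60.6 and 58.5 CPM in siNT2. It was at 11.7 and 11.5 CPM in siPAX8, 19.6 and 24 CPM in siSOX17 and 14.7 and 13 CPM in siDual, and at 39 and 37.5 CPM in siMECOM and 48.6 and 47.1 CPM in siWT1. No knockdown library overlapped with the controls, and siPAX8 and siDual were lowest. The fall in siPAX8 was 5.32-fold (log2 fold change -2.41, SE 0.09, adjusted p = 2.17e-13), the largest of the 55 members, and ESPL1 also had the largest fall of the members in siDual (log2 fold change -2.16, SE 0.09, adjusted p = 5.2e-13) and in siMECOM (log2 fold change -0.70, SE 0.08, adjusted p = 2.71e-06).

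CDC20 activates the anaphase-promoting complex and is the target of the checkpoint. It was at 395 and 360.5 CPM in siNT1 and at 347 and 359.8 CPM in siNT2, and at 77.4 and 68.7 CPM in siPAX8, 153 and 157 CPM in siSOX17 and 117 and 111 CPM in siDual. The 3 groups separated from the controls and from each other, in the order siPAX8, siDual, siSOX17, with log2 fold changes of -2.32, -1.68 and -1.24 (SE 0.08, 0.08 and 0.07). UBE2C, the ubiquitin-conjugating enzyme that works with that complex, was at 173 and 168 CPM in siNT1 and at 164 and 163 CPM in siNT2, at 52.6 and 49.7 CPM in siPAX8, 74.9 and 78.6 CPM in siSOX17 and 58.8 and 58.3 CPM in siDual, and at 126 and 122 CPM in siMECOM and 133 and 145 CPM in siWT1. It fell in all 5 groups, and in siMECOM by 0.43 on the log2 scale (SE 0.06, adjusted p = 3.87e-05). The siWT1 call was lost without siWT1 replicate 1 (adjusted p = 0.0665). PTTG1, the securin that holds separase inactive, was at 254 and 251 CPM in siNT1 and at 263 and 259 CPM in siNT2, and at 89.7 and 79.5 CPM in siPAX8, 185 and 185 CPM in siSOX17 and 137 and 137 CPM in siDual. Its fall was -1.60 in siPAX8 and -0.47 in siSOX17, where it was the smallest of the 5, and the groups did not overlap. SGO1, which protects cohesin at centromeres until anaphase, had log2 fold changes of -1.68, -0.84 and -1.22 in siPAX8, siSOX17 and siDual.

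Among 12 genes of the centromere and kinetochore, all 12 fell in siPAX8, siSOX17 and siDual, with medians of -1.50, -0.71 and -0.98. The NDC80 complex, which grips the ends of spindle microtubules, has 4 subunits. NDC80 was at 64.5 and 61.7 CPM in siNT1 and at 61.5 and 59.3 CPM in siNT2, and at 18.3 and 18.3 CPM in siPAX8, 38.3 and 38.9 CPM in siSOX17 and 26.5 and 25 CPM in siDual. SPC25 was at 31.3 and 29.2 CPM in siNT1 and at 30.1 and 29.6 CPM in siNT2, and at 8.83 and 7.87 CPM in siPAX8, 13.9 and 13.3 CPM in siSOX17 and 12.3 and 11.4 CPM in siDual. Both, with NUF2, fell clear of the controls: the log2 fold changes in siPAX8 were -1.75 for NDC80, -1.84 for SPC25 and -1.45 for NUF2. SPC25 also fell in siWT1, to 21.6 and 21.2 CPM (log2 fold change -0.49, SE 0.08, adjusted p = 7e-05), the largest fall among the members there.

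The remaining subunit of that complex, SPC24, changed least of all 55 members in siPAX8. It was at 47.5 and 45.6 CPM in siNT1 and at 54.9 and 51 CPM in siNT2, and at 45.6 and 40 CPM in siPAX8, 39.1 and 42.5 CPM in siSOX17 and 44.1 and 40.2 CPM in siDual. A siPAX8 library reached the control range, the siSOX17 and siDual libraries lay below it, and the log2 fold changes were -0.21, -0.28 and -0.24 (adjusted p = 0.0214, 0.00386 and 0.0115). In siPAX8 the call was lost without siNT1 replicate 1, siNT2 replicate 1 or siPAX8 replicate 2 (adjusted p = 0.0566, 0.064 and 0.329), in siSOX17 without its replicate 1 (adjusted p = 0.0795) and in siDual without its replicate 2 (adjusted p = 0.173). Against siNT1 alone all 3 calls were lost, with log2 fold changes of -0.12, -0.19 and -0.14 (adjusted p = 0.263, 0.0785 and 0.176). Since the strand setting of the counting is not given, the SPC24 values are reported as uncertain.

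KNL1, the scaffold on which the BUB proteins gather, fell by 1.59 on the log2 scale in siPAX8. CENPF, a large protein of the outer kinetochore, was at 168 and 167 CPM in siNT1 and at 168 and 161 CPM in siNT2, at 50.1 and 53 CPM in siPAX8, 68.8 and 82.3 CPM in siSOX17 and 64.9 and 58 CPM in siDual, and at 121 and 124 CPM in siMECOM. All of these knockdown libraries were below the controls, with log2 fold changes of -1.69, -1.14, -1.44 and -0.44. CENPE, a kinesin that carries chromosomes to the spindle equator, fell by 1.55 in siPAX8 and 0.57 in siSOX17 on that scale. CENPA, the histone H3 variant that marks centromeres, had log2 fold changes of -1.22, -0.74 and -0.83 in siPAX8, siSOX17 and siDual. CENPI, CENPK, CENPM and CENPN belong to the network of proteins that stays on centromeres through the cell cycle. CENPM fell to 12.9 and 11.6 CPM in siPAX8 and 14.4 and 14.7 CPM in siSOX17 from 33.5 to 38.2 CPM in the controls, and had the largest fall of the 12 in siSOX17 (-1.31) and in siMECOM (log2 fold change -0.51, SE 0.10, adjusted p = 0.000419). CENPI and CENPK had log2 fold changes of -1.30 and -1.25 in siPAX8. CENPN was at 40.9 and 39.9 CPM in siNT1 and at 35.7 and 34.5 CPM in siNT2, and at 26.4 and 25.2 CPM in siPAX8, 32.2 and 33.5 CPM in siSOX17 and 28 and 31.3 CPM in siDual. Its log2 fold changes were small, -0.55, -0.20 and -0.34, and the siSOX17 call was lost without siNT1 replicate 1, siNT2 replicate 1 or either siSOX17 library (adjusted p = 0.0592, 0.063, 0.17 and 0.0655). The siSOX17 call was also lost against siNT2 alone (log2 fold change -0.10, adjusted p = 0.352) and without a filter (-0.22, adjusted p = 0.0537). CENPN shares exon sequence with CMC2 and other genes whose reads over all 14 libraries summed to 242% of its own.

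The chromosomal passenger complex corrects faulty attachments and acts again in cytokinesis. All 4 of its genes fell in siPAX8, siSOX17 and siDual, and all 4 by at least 2-fold in siPAX8 and siDual. AURKB, its kinase, was at 50.6 and 44.7 CPM in siNT1 and at 43.3 and 40.8 CPM in siNT2, at 10.9 and 9.69 CPM in siPAX8, 19.5 and 18.9 CPM in siSOX17 and 14.2 and 13.1 CPM in siDual, and at 33.5 and 31.2 CPM in siMECOM and 37.7 and 38.2 CPM in siWT1. Every knockdown library was below every control library, and the fall in siPAX8 was 4.35-fold (log2 fold change -2.12, SE 0.09, adjusted p = 4.62e-13). BIRC5 (survivin), which brings the complex to centromeres, was at 196 and 189 CPM in siNT1 and at 191 and 189.9 CPM in siNT2, at 64.7 and 62.5 CPM in siPAX8, 108 and 104 CPM in siSOX17 and 90.3 and 92.9 CPM in siDual, and at 146 and 140.0 CPM in siMECOM and 169 and 172 CPM in siWT1. It fell in all 5 groups, by 0.42 in siMECOM on the log2 scale (SE 0.06, adjusted p = 3.03e-05). The siWT1 call (log2 fold change -0.17, SE 0.06, adjusted p = 0.0365) was lost without any 1 of the control or siWT1 libraries (adjusted p from 0.0527 to 0.15). CDCA8 (borealin), also a targeting subunit, fell in siPAX8 (-1.64) and in siWT1 (log2 fold change -0.39, SE 0.07, adjusted p = 0.00013). INCENP, the scaffold of the complex, was the only member lowest in siSOX17. It was at 77.9 and 75 CPM in siNT1 and at 73.7 and 68.4 CPM in siNT2, and at 29.6 and 30.3 CPM in siPAX8, 25.5 and 27.9 CPM in siSOX17 and 29 and 25.8 CPM in siDual. The siSOX17 and siDual libraries overlapped and lay below those of siPAX8, and the log2 fold changes were -1.30, -1.46 and -1.43.

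All 8 mitotic kinesins fell by at least 2-fold in siPAX8, with a median of -1.68, and all 8 fell in siSOX17 (median -0.86) and siDual (median -1.06). KIF11, the motor that pushes spindle poles apart, was at 156 and 159 CPM in siNT1 and at 146 and 146 CPM in siNT2, and at 45.6 and 48.7 CPM in siPAX8, 69.3 and 72.5 CPM in siSOX17 and 57.4 and 54.1 CPM in siDual. Its log2 fold changes of -1.68, -1.10 and -1.44 each had an SE of 0.07, and no group overlapped with another. KIF15, which can stand in for KIF11 in holding the poles apart, fell further than the other kinesins in siDual. It was at 17.7 and 19.7 CPM in siNT1 and at 19 and 17.9 CPM in siNT2, and at 5.48 and 4.88 CPM in siPAX8, 6.84 and 6.61 CPM in siSOX17 and 4.76 and 4.25 CPM in siDual. The log2 fold change of -2.05 in siDual (SE 0.10) was below its -1.84 in siPAX8, a difference that did not pass the test (adjusted p = 0.272). KIF20A, a motor of the central spindle in cytokinesis, showed the widest gap between the PAX8 and SOX17 pools. It was at 199 and 195 CPM in siNT1 and at 186 and 171 CPM in siNT2, at 51.5 and 52.5 CPM in siPAX8, 133 and 131 CPM in siSOX17 and 98.5 and 98.6 CPM in siDual, and at 151 and 149.6 CPM in siWT1. All of these lay below the controls, with log2 fold changes of -1.85, -0.51, -0.93 and -0.32. KIF2C, which takes microtubules apart at faulty attachments, fell by 1.81 in siPAX8, and KIF4A, which acts on chromosome arms and the central spindle, by 1.68 on the log2 scale. The cytokinesis motor KIF14 fell by 1.57 there and also in siMECOM (-0.35, adjusted p = 0.00762). Without siMECOM replicate 1 its siMECOM value was -0.28 and was not called. KIF23, a part of centralspindlin, and KIF18A, which damps chromosome oscillations, had the smallest falls of the 8 in siPAX8, -1.29 and -1.26.

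Of 8 further proteins of the spindle and of cytokinesis, all 8 fell in siPAX8 (median -1.54), and 7 fell in siSOX17 (median -0.74) and in siDual (median -0.98). TPX2, which activates AURKA on the spindle, was at 453 and 464 CPM in siNT1 and at 421 and 445 CPM in siNT2, and at 154 and 147 CPM in siPAX8, 256 and 284 CPM in siSOX17 and 204 and 198 CPM in siDual. The groups were apart from the controls and from each other, with log2 fold changes of -1.57, -0.72 and -1.15. NUSAP1, a microtubule-bundling protein, had the largest fall of these 8 in siPAX8, from 83.8 to 104 CPM in the controls to 26.3 and 27 CPM (log2 fold change -1.85, SE 0.08, adjusted p = 4.66e-13), and PRC1, which crosslinks the central spindle, fell by 1.56 there on the log2 scale. In siMECOM, NUSAP1 was at 107 and 105 CPM, above every control library, and was not called. Against siNT2 alone it was called higher there (log2 fold change 0.24, adjusted p = 0.0299). DLGAP5 (HURP) and ASPM, both spindle proteins, had log2 fold changes of -1.58 and -1.52 in siPAX8. ECT2, which activates RhoA for the contractile ring, fell in siPAX8 (-1.22) and in siMECOM (log2 fold change -0.40, SE 0.08, adjusted p = 0.000627).

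ANLN (anillin), the scaffold of the contractile ring, was the only member that did not fall in siSOX17 or siDual. It was at 398 and 382 CPM in siNT1 and at 407 and 378 CPM in siNT2, at 232 and 230.2 CPM in siPAX8, 419.9 and 461 CPM in siSOX17 and 385 and 365 CPM in siDual, and at 296 and 298 CPM in siMECOM and 356 and 306 CPM in siWT1. The siSOX17 libraries lay above every control library, the siDual libraries partly within the control range, and the siPAX8, siMECOM and siWT1 libraries below it. The fall was called in siPAX8 (-0.76), siMECOM (-0.40) and siWT1 (-0.24), while siSOX17 gave 0.17 (SE 0.07, adjusted p = 0.0547) and siDual -0.06 (adjusted p = 0.481). Without siWT1 replicate 2 the siWT1 value was -0.14 and was not called. The value in siSOX17 was called higher without siNT2 replicate 1, siSOX17 replicate 1, siWT1 replicate 1 or siWT1 replicate 2 (adjusted p = 0.0452, 0.0431, 0.0371 and 0.0373). HMMR, a protein of spindle poles, was at 107 and 101 CPM in siNT1 and at 87.3 and 78.7 CPM in siNT2, at 34.9 and 36.5 CPM in siPAX8, and at 125 and 106 CPM in siWT1. It fell by 1.38 on the log2 scale in siPAX8, whereas 1 siWT1 library lay above all controls and the other within their range (log2 fold change 0.32, SE 0.07, adjusted p = 0.0019). That rise was not called without siWT1 replicate 1 (adjusted p = 0.0992) or against siNT1 alone (adjusted p = 0.17), whose libraries held more HMMR than those of siNT2.

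All 6 genes of mitotic chromosome structure fell in siPAX8, siSOX17 and siDual, with medians of -1.73, -0.73 and -1.11. TOP2A, the topoisomerase that untangles sister chromatids, was at 246 and 255 CPM in siNT1 and at 273 and 233 CPM in siNT2, at 62.3 and 68 CPM in siPAX8, 97.1 and 106 CPM in siSOX17 and 80.2 and 76.8 CPM in siDual, and at 171 and 177 CPM in siMECOM and 225 and 202 CPM in siWT1. Each knockdown library was below each control library, from a 3.87-fold fall in siPAX8 (log2 fold change -1.95, SE 0.08, adjusted p = 6.95e-13) to -0.24 in siWT1. MKI67 encodes Ki-67, which coats mitotic chromosomes and serves as a marker of proliferation in pathology. It was at 734 and 702 CPM in siNT1 and at 665 and 733 CPM in siNT2, at 204 and 213 CPM in siPAX8, 427 and 573 CPM in siSOX17 and 347 and 319 CPM in siDual, and at 689 and 676 CPM in siMECOM and 539 and 533 CPM in siWT1. The siPAX8 libraries were lowest, the siSOX17 libraries stood further apart from each other than in any other group, and the siMECOM libraries lay in the control range. Its log2 fold changes were -1.76, -0.50, -1.09, -0.05 and -0.40 in siPAX8, siSOX17, siDual, siMECOM and siWT1. The condensin subunits NCAPH and NCAPG fell by 1.87 and 1.70 in siPAX8, and the subunits SMC4 and SMC2, which both condensin complexes share, by 1.41 and 0.88. SMC2 changed least of the 6 in siPAX8: it was at 52.5 and 57.4 CPM in siNT1 and at 58.5 and 51.3 CPM in siNT2, and at 29.2 and 30.5 CPM in siPAX8, 39.2 and 38 CPM in siSOX17 and 38.3 and 39.9 CPM in siDual, still below every control library.

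**Figure D3:**
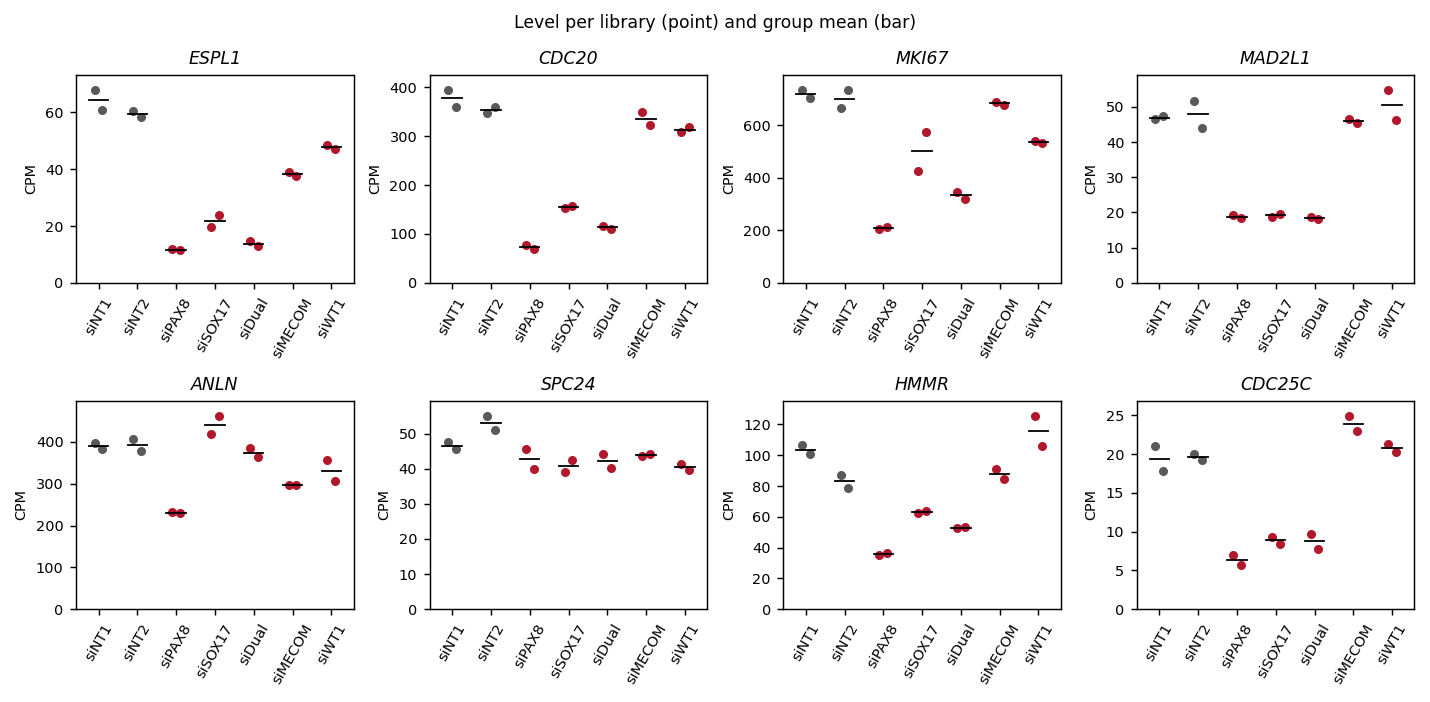
Level in CPM (vertical axes, from 0) in each of the 14 libraries (points) by siRNA group (horizontal axes), with the group mean as a bar, for selected members. CDC20 and ESPL1 fall to 77.4 and 11.7 CPM or less in siPAX8, SPC24 stays between 39.1 and 54.9 CPM in all libraries, and ANLN does not fall in siSOX17.

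Set against each other, the PAX8 pool lowered the members further than the SOX17 pool. Of the 55, 49 were lower in siPAX8 than in siSOX17 and none was higher, with a median log2 difference of -0.68, against 19.8% of all genes called lower. The largest differences were in KIF20A (-1.34, SE 0.08), MKI67 (-1.26), CDC25B (-1.23), PTTG1 (-1.13) and CDC20 (-1.08). The 6 without a called difference were CENPM, CDC25A, BUB3, MAD2L1, SPC24 and INCENP, with values from -0.24 for CENPM to 0.16 for INCENP.

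With both pools in siDual, the members were not lower than with the PAX8 pool alone. Of the 55, 42 were higher in siDual than in siPAX8 and none was lower, with a median of 0.42, against 11% of all genes called higher. The largest differences were in KIF20A (log2 fold change 0.92, SE 0.08, adjusted p = 8.39e-08), ANLN (0.70), PTTG1 (0.70), CENPE (0.69) and MKI67 (0.67). PAX8 itself was 1.45-fold higher in siDual than in siPAX8 (log2 difference 0.54, SE 0.08, adjusted p = 0.000124), and its part in these differences was not tested. Against siSOX17, 26 members were lower in siDual and none was higher, with a median of -0.28, against 7.82% of all genes, and CDC25B (-0.82), ESPL1 (-0.66), MKI67 (-0.59), NDC80 (-0.59) and KIF15 (-0.58) differed most. Without siDual replicate 2 that count was 17. For 49 of the 55 members (89.1%) the fitted siDual level lay between those of siPAX8 and siSOX17, as it did for 53% of all genes tested.

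The siPAX8 and siSOX17 responses did not add up on the log2 scale. Had they done so, the members would have had a median of -2.43 in siDual, and the measured median was -1.12. In the test of siDual against the sum of the siPAX8 and siSOX17 responses, 54 members were above the additive value and none below it, 49 by at least 2-fold, with a median of 1.28. Of all genes tested 12% were called above it and 3.19% by at least 2-fold. The labels do not say whether each pool was given at a lower dose in siDual than alone, and PAX8 was less reduced there than in siPAX8. The part of dose in the differences from the sum was not tested. Had the responses added up, CDC20 would have been at 8.48% of control and was at 31.2% (difference 1.88, SE 0.11, adjusted p = 1.42e-09). ESPL1 would have been at 6.63% and was at 22.3% (difference 1.75, SE 0.14, adjusted p = 3.23e-08). PLK4, SPC25 and AURKB followed, with differences of 1.65, 1.65 and 1.62. SPC24 was the member without a call (0.26, adjusted p = 0.106); it was called without siPAX8 replicate 1 (adjusted p = 0.0497). The smallest called difference, in CENPN (0.40, adjusted p = 0.0101), was lost without siPAX8 replicate 2, without siDual replicate 2 and against siNT2 alone.

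**Figure D4:**
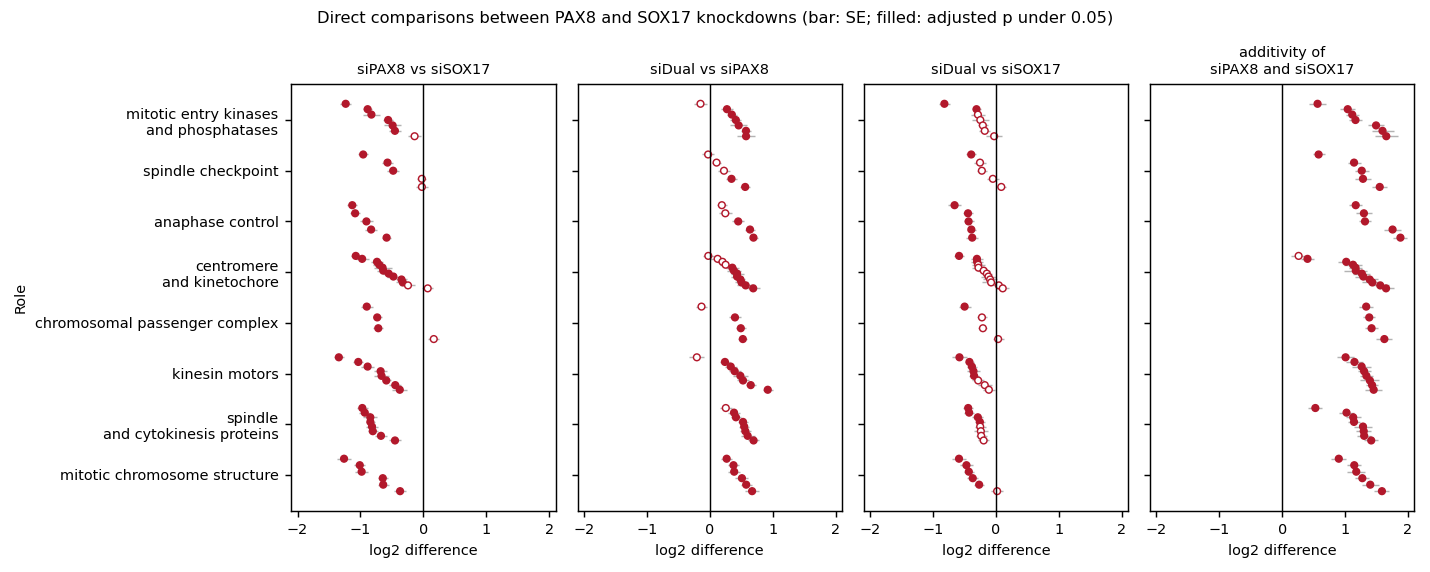
Log2 differences (horizontal axes) of the 55 members grouped by role (vertical axis) in 4 comparisons: siPAX8 against siSOX17, siDual against siPAX8, siDual against siSOX17, and siDual against the sum of the 2 responses. Points are members, bars are the SE and filled points passed an adjusted p under 0.05: 49 lie below 0 in the comparison of siPAX8 with siSOX17, 42 above 0 in that of siDual with siPAX8, 26 below 0 in that of siDual with siSOX17 and 54 above 0 against the sum.

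Between siMECOM and siWT1, 13 of the 55 members were lower in siMECOM and 7 higher, with a median of -0.05, against 21.3% and 23.9% of all genes. The share of members called lower was thus close to that of all genes, and the share called higher was below it. Lower in siMECOM were HMMR (log2 fold change -0.40, SE 0.09, adjusted p = 0.000831), BUB3 (-0.37), CENPM (-0.37), BUB1B (-0.36) and CDC25A (-0.36) at the head. Higher in siMECOM were SPC25 (log2 fold change 0.38, SE 0.09, adjusted p = 0.0018), MKI67 (0.35), CENPI (0.33), DLGAP5 (0.25) and KIF20A (0.22). These counts moved with single libraries: the lower count was 6 without siMECOM replicate 2 and 8 without siMECOM replicate 1 or siWT1 replicate 1, and the higher count was 1 without siWT1 replicate 2, 2 without siMECOM replicate 2 and 3 without siMECOM replicate 1 or siNT2 replicate 2. Under all 23 alternatives tried, 13 of the 24 calls in siMECOM held: CDC25B, PLK1, TTK, UBE2C, ESPL1, CENPF, CENPM, AURKB, BIRC5, KIF23, ANLN, ECT2 and TOP2A, all lower. In siWT1, 6 of 29 held, again all lower: PLK1, ESPL1, SPC25, CDCA8, KIF20A and MKI67.

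Exons of 19 members overlap with those of another gene, and for 18 of these the other genes' reads in the table came to over 5% of the member's own. The other 36 members, without such overlap, all fell in siPAX8, siSOX17 and siDual, with medians of -1.59, -0.87 and -1.15. The 19 with overlap had medians of -1.45, -0.75 and -1.01, and 19, 18 and 18 of them fell. CENPA is 1 of the 19, and its partner SLC35F6 was at 73.3 CPM in the controls and had log2 fold changes of -0.38 in siPAX8 and 0.44 in siSOX17.

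The responses of members with and without the promoter letters spanned overlapping ranges. In siPAX8 the 37 members with CHR letters had a median of -1.62 (from -2.41 to -0.55) and the 10 without had a median of -1.57 (from -2.12 to -0.21). In siSOX17 the medians were -0.84 and -0.63, and in siDual -1.15 and -0.93. Members with and without a CCAAT box had medians of -1.61 and -1.55 in siPAX8. These are descriptions with no test. The ends of the siPAX8 range without CHR letters were AURKB (-2.12) and SPC24 (-0.21).

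Other genes of mitosis, 115 in 8 lists drawn up by function, also fell in siPAX8, siSOX17 and siDual for the most part. In siPAX8, 102 of the 115 were lower and 2 higher, with a median of -0.93. In siSOX17, 98 were lower and 4 higher (median -0.62), and in siDual 97 and 3 (median -0.79). Of all genes 25.4%, 25.5% and 27.3% were lower in siPAX8, siSOX17 and siDual, and 26.9%, 27.2% and 28.9% were higher. In siMECOM 29 were lower and 10 higher (median -0.09), against 16.1% and 16.5% of all genes, and in siWT1 32 and 11 (median -0.06), against 19.8% and 17.7%. All 4 mitotic cyclins fell in siPAX8, siSOX17 and siDual, and CCNA2, the cyclin A that works with CDKs through S phase into mitosis, had log2 fold changes of -2.72 (SE 0.09, adjusted p = 4.74e-14) in siPAX8 and -1.67 in siDual. All 32 other spindle, centrosome and cytokinesis genes fell in siPAX8, led by the spindle protein PSRC1 (-2.24, SE 0.10), as did the 4 other condensin subunits, led by NCAPD2 (-1.54, SE 0.08). Of 29 other centromere and kinetochore genes 27 fell in siPAX8, with SKA3, a part of the complex that tracks microtubule ends, lowest (-1.90, SE 0.08). Of 12 cohesin genes 9 fell, with CDCA5 (sororin) lowest (-1.48), and of 12 further regulators of mitotic entry and exit 10 fell, with CDCA3 lowest (-1.87). Among 7 transcriptional regulators of mitotic genes 6 fell in siPAX8, and FOXM1, which binds the promoters of many of these genes, had log2 fold changes of -2.04 (SE 0.12, adjusted p = 4.34e-11), -0.71 and -1.34 in siPAX8, siSOX17 and siDual and also fell in siMECOM (-0.31, adjusted p = 0.036) and siWT1 (-0.70, adjusted p = 5.76e-05). The 15 subunits of the anaphase-promoting complex changed less: 10 were lower and 2 higher in siPAX8, against 25.4% and 26.9% of all genes. Their median was -0.28, ANAPC2 had the largest fall (-0.77) and ANAPC13 the largest rise (0.75, SE 0.08).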

How the data were processed

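The authors deposited whole-number read counts per gene for 14 libraries, per the file headers and values, not normalised, with a gene length beside them. STAR 2.5.1b, featureCounts 1.6.3 and build hg38 are named in the submitters' processing notes; which annotation was used, with what strand setting, is not given in the sources used here. Symbols and positions came from GENCODE 29 (57881 of 58219 genes matched). Samples were grouped by the pool in their titles.

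The filterByExpr function of edgeR 4.0.16 kept 21032 genes, at a minimum count of 10 and a total of 15, and TMM factors scaled the libraries. CPM values use the scaled library sizes; at 40832825 reads or more per library, every member had 169 reads or more in each. All tests came from 1 quasi-likelihood fit with a coefficient per group; controls are the mean of siNT1 and siNT2, Benjamini-Hochberg adjustment ran over all genes tested, with calls at an adjusted p under 0.05. The fit was tested on simulated data.

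The members, lists and comparisons were chosen with earlier results of these data known. By rule, the text names in each knockdown and role the 2 lowest members and the highest, members not called or called in opposite directions, the 5 largest differences in other comparisons, and the most changed gene of each further list. Alternatives were DESeq2 1.42.0, its size factors, no filter, a stricter filter (1 CPM in 2 libraries), no mitochondrially encoded genes, a replicate block, only the groups compared, either control pool alone, and each library left out.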

Additional observations from a re-analysis of the deposited data

Results flagged for a closer look

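For 54 of the 55 members siDual differed from the sum of the siPAX8 and siSOX17 responses, by the test of the difference itself (edgeR's quasi-likelihood test, Benjamini-Hochberg over all genes tested). In each of the 54, siDual lay above the sum of the siPAX8 and siSOX17 responses on the log2 scale. The median difference of the 55 members from the sum was 1.28. SPC24 was the remaining member. The labels do not say whether each pool was given at a lower dose in siDual than alone. By the same test PAX8 was higher in siDual than in siPAX8 (log2 difference 0.54, adjusted p = 0.000124). SOX17 was not called different between siDual and siSOX17 (log2 difference 0.23, adjusted p = 0.228). The part of dose in the differences from the sum was not tested.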

How the results depend on the processing

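No member reversed a call, and in siPAX8, siSOX17 and siDual 54 of 55, 52 of 54 and 53 of 54 calls held under all 23 alternatives. The calls that held numbered 46 of 49 between siPAX8 and siSOX17, 29 of 42 between siDual and siPAX8, 16 of 26 between siDual and siSOX17, 5 of 20 between siMECOM and siWT1, and 53 of 54 for additivity. The fits against either control pool alone were not run for comparisons between knockdowns, which were tried under the other alternatives only. The count of members higher in siSOX17 went from 0 to 1 (ANLN) with DESeq2, DESeq2 size factors, the stricter filter and the replicate block. Higher in siMECOM fell from 1 to 0 without a filter and against siNT1 alone. Against siNT2 alone that count stayed at 1, but the member was NUSAP1 and not CDC25C. Lower in siWT1 fell from 26 to 15 against siNT2 alone, and higher there from 3 to 1 against siNT1 alone. Higher in siMECOM than in siWT1 fell from 7 to 4 with DESeq2, without mitochondrially encoded genes and with only the groups compared, and to 3 without a filter; the cause was not tested, beyond the fewer samples or different genes of each setting.

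With each library left out in turn, members lower in siDual than in siSOX17 ranged from 17 to 30, lower in siMECOM from 14 to 29, higher in siMECOM from 0 to 1 and its median from -0.23 to -0.14, higher in siSOX17 from 0 to 1, lower in siWT1 from 9 to 27 and higher from 0 to 3. Between siMECOM and siWT1 the lower count ranged from 6 to 19 and the higher from 1 to 7. Where a group is left with 1 library, that library is assumed to vary like the others. Replicate numbers showed little pairing of the libraries. Over 21 pairs of groups the correlation of replicate differences ran from -0.02 to 0.16, with a median of 0.07, and 7 exceeded 0.1. A weak effect shared by replicate number was not tested apart from the replicate block. With the replicate block the lower counts were 55, 54 and 54 in siPAX8, siSOX17 and siDual. With promoters searched only from 100 bases before to 50 after the start, CHR letters were found for 74.5% of members and 9.09% of genes, CCAAT boxes for 68.1% and 25.3%, and E2F letters for 6.38% and 2.07%.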

Other observations

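Several transcripts that overlap a member on the opposite strand had log2 fold changes close to those of the member, and others did not. AC008870.3, which overlaps PLK1, had log2 fold changes of -1.70 in siPAX8 and -1.25 in siSOX17, against -1.67 and -1.22 for PLK1. PRC1-AS1 had -1.63 and -0.72, against -1.56 and -0.75 for PRC1, and SGO1-AS1 had -1.55 and -0.74, against -1.68 and -0.84 for SGO1. HMMR-AS1 had -1.33 in siPAX8 and 0.36 in siWT1, against -1.38 and 0.32 for HMMR. Without the strand setting these reads cannot be told apart from those of the member. AL592166.1, on the opposite strand to KIF2C, had -0.49 in siPAX8, against -1.81 for KIF2C. AC027237.3, opposite to KIF23, had -0.03 there, against -1.29 for KIF23. Protein-coding genes on the opposite strand were mixed. TRIM59, which overlaps SMC4, had -1.37 in siPAX8 and -0.84 in siSOX17, against -1.41 and -0.77 for SMC4. PDZD11, which overlaps KIF4A, had 0.15 in siPAX8. KIAA0895, which overlaps ANLN, had -0.39 in siPAX8 and 0.43 in siSOX17.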
